A study of Mus musculus with 14 samples.

Results

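The guanylate-binding proteins (GBPs) were followed in mouse heart after irradiation of the chest. The members were the rows of the deposited count table whose symbol is Gbp2, Gbp3, Gbp4, Gbp5, Gbp6, Gbp7, Gbp8 or Gbp9, that is 8 of 54532 genes, and all 8 passed the filter on low counts that left 16034 genes for testing. Bulk RNA of cardiac tissue was sequenced in 14 libraries, each from 1 male wild-type C57BL/6J mouse that was 8 weeks old at irradiation. Control_1d (n = 3) and Control_6w (n = 4) were unirradiated mice, and IRR_1d (n = 3) and IRR_6w (n = 4) had received 30 Gy of cobalt γ-rays locally to the chest, and hearts were taken after 1 day or 6 weeks. Irradiation was done under pentobarbital anaesthesia, and whether the unirradiated mice were anaesthetised was not given in the sources used here. No group carried an engineered allele. Whole-tissue RNA was used, and in such bulk samples fewer cells of a type and less RNA per cell cannot be told apart.

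GBPs are large GTPases that cells make in response to interferons, above all interferon-γ, and to a lesser degree type I interferons. They bind and hydrolyse GTP, assemble on membranes, and coat the vacuoles of intracellular parasites and bacteria as well as bacterial lipopolysaccharide. On such surfaces they promote rupture of the vacuole and the activation of caspase-11 and other inflammasomes. Some members, Gbp2 and Gbp5 among them, carry a lipid tail at their C terminus that anchors them in membranes. Their promoters are classical targets of factors that interferons activate, which bind the GAS and ISRE elements. Mouse Gbp2, Gbp3, Gbp6, Gbp7 and Gbp9 are among the members recruited to Toxoplasma vacuoles in infected cells. Macrophages and endothelial cells are among the cells known to induce them strongly.

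In the GENCODE annotation of GRCm38 (mm10), whose coordinates matched the deposited ones for 98.3% of the genes found in it, the members lie in 2 clusters. Gbp5 (chr3:142493978-142522344), Gbp7 (chr3:142530342-142550149), Gbp3 (chr3:142560026-142573209) and Gbp2 (chr3:142620602-142638008) follow each other on the plus strand of chromosome 3, with Gbp2b between Gbp3 and Gbp2. Gbp8 (chr5:105014150-105139540), Gbp9 (chr5:105077630-105139539), Gbp4 (chr5:105115767-105139586) and Gbp6 (chr5:105270702-105293698) lie on the minus strand of chromosome 5. All 8 are annotated as protein-coding. Gbp4, Gbp8 and Gbp9 share their annotated 5′ ends, with 60 or 61 exonic bases in common, which is 0.814 to 1.77% of the exonic bases of each. Gbp6 shared 29.0% of its exonic bases with the overlapping gene model Gm43302, and 64.5% of its 100-base stretches also occur in transcripts of other genes, mainly Gm43302 and Gbp10. Its counts are therefore less certain than those of Gbp2, Gbp3, Gbp4, Gbp5 and Gbp9, for which this share was at most 1.65%. For Gbp7 the share was 10% and for Gbp8 4.39%. Gm43302 itself had 6 counts over all libraries together.

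The promoters of the chromosome 3 members are shown because these genes are textbook targets of interferon-activated factors and 3 of them stood together at 1 day. RefSeq promoter windows (GRCm38.p6, plus strand, 250 bases before to 50 after the start site) were at hand for 4 of the 8 members, Gbp2, Gbp3, Gbp5 and Gbp7, and not for Gbp4, Gbp6, Gbp8 and Gbp9. Both strands were searched for an ISRE (GAAA, any 2 bases, GAAA), a GAS (TTC, any 3 bases, GAA) and an NF-kB element (GGGA, any 2 bases, TTCC), and matches are in capitals. An ISRE or NF-kB match on the minus strand reads as its reverse complement, so that an ISRE shows as TTTC, any 2 bases, TTTC. No match of one motif overlapped a match of another.
Gbp2 (chr3:142620413-142620712): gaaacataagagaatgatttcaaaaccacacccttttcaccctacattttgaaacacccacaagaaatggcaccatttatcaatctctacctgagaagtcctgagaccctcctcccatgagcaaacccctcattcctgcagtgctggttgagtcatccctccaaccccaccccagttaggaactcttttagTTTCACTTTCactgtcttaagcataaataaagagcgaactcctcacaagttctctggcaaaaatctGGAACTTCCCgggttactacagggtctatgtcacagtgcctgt
Gbp3 (chr3:142559794-142560093): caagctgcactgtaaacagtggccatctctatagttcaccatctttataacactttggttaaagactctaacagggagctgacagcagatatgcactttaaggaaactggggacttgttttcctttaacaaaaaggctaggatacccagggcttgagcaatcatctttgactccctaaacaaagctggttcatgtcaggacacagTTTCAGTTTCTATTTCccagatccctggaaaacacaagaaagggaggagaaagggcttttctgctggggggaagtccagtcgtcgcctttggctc
Gbp5 (chr3:142496684-142496983): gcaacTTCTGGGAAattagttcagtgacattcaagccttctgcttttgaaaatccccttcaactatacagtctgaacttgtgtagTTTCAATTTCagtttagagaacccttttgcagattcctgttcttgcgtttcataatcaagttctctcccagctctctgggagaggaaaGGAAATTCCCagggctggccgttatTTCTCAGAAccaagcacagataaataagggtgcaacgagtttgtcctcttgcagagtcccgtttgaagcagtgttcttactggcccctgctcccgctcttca
Gbp7 (chr3:142530086-142530385): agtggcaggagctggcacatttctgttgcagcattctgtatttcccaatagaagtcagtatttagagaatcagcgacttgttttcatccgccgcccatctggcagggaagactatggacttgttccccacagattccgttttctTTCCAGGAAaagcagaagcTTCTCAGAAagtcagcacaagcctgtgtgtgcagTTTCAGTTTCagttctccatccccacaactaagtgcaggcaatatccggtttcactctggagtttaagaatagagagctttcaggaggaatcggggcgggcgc

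All 4 genes held the ISRE letters, against 3.44% of 32851 promoter windows of the same length. The match began at -59 from the start site in Gbp2, at -165 in Gbp5 and at -53 in Gbp7, and Gbp3 held a pair that overlap each other, at -45 and -39. The window of a second annotated start of Gbp3 (chr3:142560106-142560405) held none of the 3 motifs. GAS letters were found 2 times in Gbp5 and 2 times in Gbp7, against any match in 8.30% of windows, and in neither Gbp2 nor Gbp3. NF-kB letters were found in Gbp2 and Gbp5, against 1.47% of windows. A match describes the letters only and is not a measured binding site.

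Libraries held 13336746 to 16837265 counts. The 7 cardiomyocyte markers summed to 4384 to 38030 CPM, so every library held heart muscle transcripts. In 3 libraries transcripts of tissues other than ventricular muscle stood out, and these are named below as those with transcripts of other tissues. Control_6w replicate 3 held 2677 CPM of thymus markers against at most 40.3 elsewhere, and IRR_6w replicate 1 held 420.4 CPM of lung epithelium markers against at most 28.3. IRR_1d replicate 3 held 1659 CPM of smooth muscle markers against at most 420.6. Atrial markers were highest in IRR_6w replicate 1 at 2812 CPM and in IRR_1d replicate 3 at 1166 CPM, against at most 536 elsewhere. Smooth muscle and atrium are parts of the heart, so for IRR_1d replicate 3 the name need not mean tissue from outside it. Its thymus and lung epithelium sums were 0.066 CPM each. B cell markers summed to 618 CPM in IRR_6w replicate 1, 363 CPM in Control_6w replicate 3 and 255 CPM in Control_1d replicate 1, against at most 42.8 elsewhere. In another 3 libraries, Control_1d replicate 1, IRR_6w replicate 3 and IRR_6w replicate 4, 37.6, 29.0 and 13.98% of the genes with a mean of 2 to 5 CPM were without counts, against 0.106 to 7.66% elsewhere.

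Levels between members were compared per length, as FPKM scaled by TMM with the deposited gene length. That length covers the exons of all annotated transcripts of a gene, so the order between members is approximate. In Control_1d, Gbp9 was highest at 14.03 ± 4.47 FPKM (SD, n = 3), followed by Gbp7 at 10.5 ± 4.49, Gbp2 at 8.56 ± 2.69 and Gbp3 at 8.23 ± 2.30 FPKM. Gbp4 stood at 4.99 ± 1.78, Gbp5 at 2.47 ± 0.820, Gbp6 at 1.75 ± 0.388 and Gbp8 at 0.0980 ± 0.103 FPKM. The gaps between Gbp9 and Gbp7, between Gbp7, Gbp2 and Gbp3, and between Gbp5 and Gbp6 were smaller than the larger SD of the neighbours. In Control_6w Gbp2 was first at 14.4 ± 1.44 FPKM (n = 4), ahead of Gbp9 at 9.88 ± 2.01, and Gbp3 stood at 7.74 ± 1.52 FPKM. In both irradiated groups Gbp2 and Gbp3 were first and second, at 25.9 ± 17.2 and 24.5 ± 17.3 FPKM in IRR_1d (n = 3) and at 23.8 ± 6.65 and 21.7 ± 4.36 FPKM in IRR_6w (n = 4). Their gap was within their SDs in both groups, as was that between Gbp3 and Gbp7 (18.3 ± 9.44 FPKM) in IRR_6w. In IRR_1d the gap between Gbp3 and the next member, Gbp9 (12.7 ± 2.33 FPKM), was smaller than the SD of Gbp3. Gbp6 was 7th of the 8 in IRR_1d at 3.04 ± 2.16 FPKM and 5th in IRR_6w at 12.1 ± 7.33 FPKM. Reads of its shared sequence may be missing while its full length was used, which was not tested. The FPKM of the 8 members summed to 45.5 to 55.9 in Control_1d and 61.2 to 136 in IRR_1d. At 6 weeks the sums were 40.1 to 95.1 in the controls and 66.8 to 138 in the irradiated mice. The groups did not overlap at 1 day and overlapped at 6 weeks, where Control_6w replicate 3 held the 95.1 and the other 3 controls 40.1 to 57.5.

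**Figure D1:**
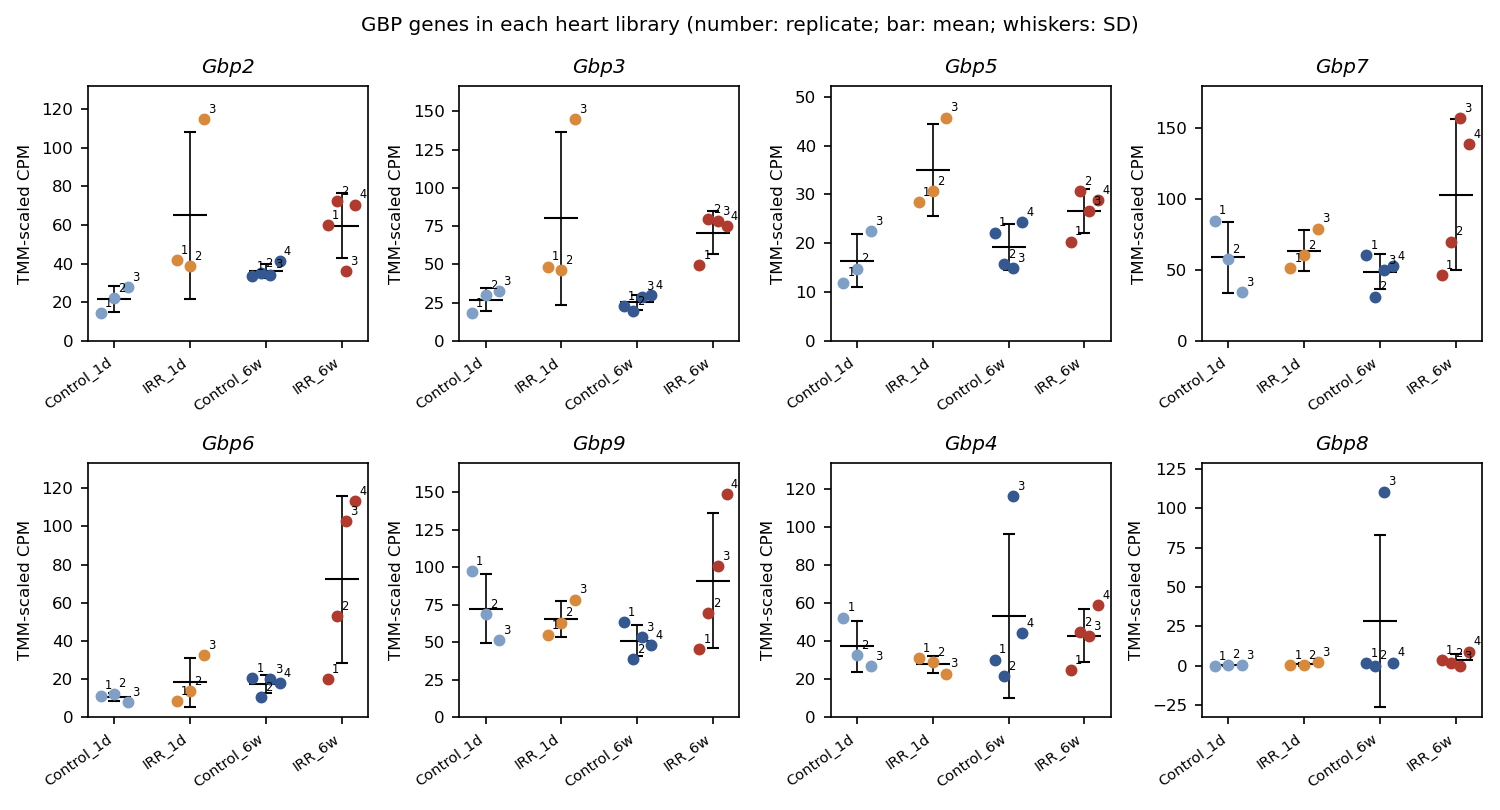
Level of each member in every library, in TMM-scaled CPM, by group, with the replicate number beside each point, a bar at the mean and whiskers of 1 SD. All 7 irradiated libraries lie above all 7 controls for Gbp3, with the lowest irradiated one at 46.4 CPM and the highest control at 32.3 CPM, while Control_6w replicate 3 stands alone for Gbp4 and Gbp8.

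Gbp3 was the 1 member called higher by edgeR, in the mean effect over both time points. The per-gene values that follow are TMM-scaled CPM. Gbp3 (ENSMUSG00000028268) stood at 18.3, 30.0 and 32.3 CPM in Control_1d replicates 1 to 3 and at 48.5, 46.4 and 145 CPM in IRR_1d replicates 1 to 3. It stood at 22.7, 19.6, 29.0 and 29.9 CPM in Control_6w replicates 1 to 4 and at 49.6, 79.7, 78.5 and 75.2 CPM in IRR_6w replicates 1 to 4. The irradiated and control mice did not overlap at either time. IRR_1d replicate 3 was far above its group and IRR_6w replicate 1 was below its group, though above every control. The log2 fold change (log2FC) averaged over both time points was 1.53 (SE 0.273, edgeR adjusted p = 0.0283), a fold of 2.89. At 1 day it was 1.58 (SE 0.413, edgeR adjusted p = 0.802) and at 6 weeks 1.48 (SE 0.356, edgeR adjusted p = 0.116), neither of which passed the test alone. Across the 14 fits that left out 1 library each, the averaged log2FC ran from 1.15 to 1.67 and the edgeR adjusted p from 0.0160 to 0.133. The call was lost in 9 of these fits, those without a Control_1d library, Control_6w replicate 1, 2 or 4, or IRR_6w replicate 2, 3 or 4. It held without the 3 libraries with transcripts of other tissues (1.26, edgeR adjusted p = 0.0110) and was lost without the 3 with many genes at 0 (1.36, edgeR adjusted p = 0.335).

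Gbp3 was 1 of 8 members called in the mean irradiation effect over both time points, where 0.281% of all tested genes were called. A call meant an edgeR adjusted p under 0.05 and a fold above 2 or below 0.5. At an unadjusted p under 0.05 with the same fold limits 3 of 8 members passed (Gbp2, Gbp3 and Gbp6), against 3.58% of all genes. Gbp3 was 1 of 8 members whose 7 irradiated libraries all lay above the 7 controls, which 0.443% of all genes did. DESeq2 on the same libraries called 3 members, Gbp3, Gbp2 (DESeq2 adjusted p = 0.00839) and Gbp6 (DESeq2 adjusted p = 0.0256), and limma voom 0, with Gbp3 at a limma adjusted p of 0.0519. Of all genes DESeq2 called 204 and limma voom 24, against 45 by edgeR. The mean effect uses the same libraries as the comparisons at 1 day and 6 weeks and is not separate evidence from them.

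At 1 day 0 of 8 members were called by edgeR, and 0.0249% of all genes were. At an unadjusted p with the fold limits 3 members passed, Gbp2, Gbp3 and Gbp5, against 2.23% of all genes. The same 3 members were those higher in every IRR_1d mouse than in any Control_1d mouse, against 6.51% of all genes. DESeq2 and limma voom also called 0 members. Of the 8 log2FC values 6 were above 0, with a median of 0.94 against 0.06 over all genes. Without IRR_1d replicate 3, 5 were above 0 and the median was 0.24.

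Gbp2 (ENSMUSG00000028270), which takes part in the destruction of Toxoplasma vacuoles, stood at 14.5, 22.2 and 27.9 CPM in Control_1d and at 41.9, 38.6 and 115 CPM in IRR_1d, in the order of the replicates. The groups did not overlap, and IRR_1d replicate 3 was again the highest. The log2FC was 1.60 (SE 0.411, edgeR adjusted p = 0.764). Gbp5, known as a promoter of NLRP3 inflammasome assembly, stood at 11.96, 14.8 and 22.5 CPM in Control_1d and at 28.5, 30.7 and 45.7 CPM in IRR_1d. These groups did not overlap either, and the log2FC was 1.09 (SE 0.320, edgeR adjusted p = 1).

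The size of these differences rested in part on IRR_1d replicate 3. Without it, the log2FC at 1 day was 0.91 for Gbp2, 0.83 for Gbp3 and 0.85 for Gbp5, each with an edgeR adjusted p of 1. Gbp6, at 8.18, 13.6 and 32.6 CPM in IRR_1d against 11.2, 12.3 and 7.85 CPM in Control_1d, had a log2FC of 0.80 (SE 0.576, edgeR adjusted p = 1) with that library and 0.06 without it. This library also held the highest smooth muscle sum, as given above, and 458 CPM of monocyte markers against 132 to 159 in the other IRR_1d libraries; their part in the GBP values was not tested.

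Gbp4, Gbp7 and Gbp9 stood elsewhere at 1 day. Gbp7, which helps assemble the NADPH oxidase in macrophages, ran from 34.3 to 84.6 CPM in Control_1d and from 51.4 to 79.1 CPM in IRR_1d. Gbp9 ran from 51.6 to 97.4 CPM in Control_1d and from 54.7 to 78.5 CPM in IRR_1d, and Gbp4 from 27.2 to 52.5 and from 23.1 to 31.3 CPM. For all 3 the highest value at 1 day was that of Control_1d replicate 1, and the groups overlapped. The log2FC values were 0.11 (SE 0.438) for Gbp7, -0.15 (SE 0.380) for Gbp9 and -0.43 (SE 0.514) for Gbp4, each with an edgeR adjusted p of 1. Control_1d replicate 1 is one of the libraries with many genes at 0 and held the B cell sum given above and 34.1 CPM of neutrophil markers against 2.32 to 13.7 in the other libraries of 1 day, whose part in these values was not tested. Without it the values were 0.48 for Gbp7, 0.13 for Gbp9 and -0.0977 for Gbp4.

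**Figure D2:**
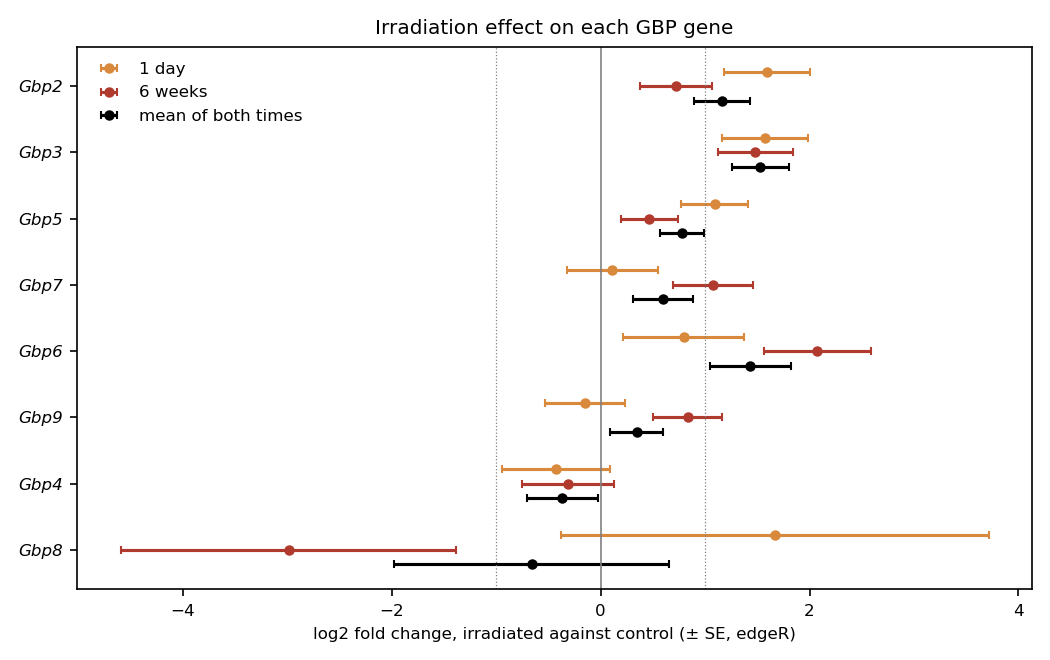
Irradiation effect on each member as a log2 fold change (log2FC) with its SE from edgeR, at 1 day, at 6 weeks and averaged over both times, with dotted lines at the fold limits. Gbp3 has 1.58 at 1 day (0.83 without IRR_1d replicate 3) and 1.48 at 6 weeks, whose average is 1.53, Gbp2 and Gbp5 have their larger value at 1 day and Gbp6, Gbp7 and Gbp9 theirs at 6 weeks.

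At 6 weeks 0 of 8 members were called by edgeR, and 0.256% of all genes were. At an unadjusted p with the fold limits 3 members passed, Gbp3, Gbp6 and Gbp7, against 5.43% of all genes. Gbp3 was the 1 member whose groups did not overlap, against 4.07% of all genes that were higher without overlap. DESeq2 on all libraries called 2 members (Gbp3, adjusted p = 0.00997, and Gbp6, adjusted p = 0.00649), and limma voom called 0. That DESeq2 fit called 343 of all genes, against 41 by edgeR. The median log2FC of the 8 members was 0.78, against -0.09 over all genes. It was 0.98 without Control_6w replicate 3, 1.21 without the 3 libraries with transcripts of other tissues and 0.34 without the 3 with many genes at 0.

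Gbp6 (ENSMUSG00000104713) had the largest positive log2FC at 6 weeks of the 8 members by edgeR, with the caution that its sequence is shared with Gm43302 and Gbp10. It stood at 20.5, 10.3, 20.0 and 17.6 CPM in Control_6w and at 19.8, 53.0, 103 and 113 CPM in IRR_6w, in the order of the replicates. IRR_6w replicate 1 lay among the controls and the other 3 irradiated libraries lay above all of them. The log2FC was 2.08 (SE 0.510, edgeR adjusted p = 0.118). Without IRR_6w replicate 1 it was 2.39 (edgeR adjusted p = 0.0286). Without the 3 libraries with many genes at 0, which include its highest ones, it was 1.09 (edgeR adjusted p = 0.759).

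Gbp7 (ENSMUSG00000040253) stood at 60.5, 31.3, 50.04 and 52.7 CPM in Control_6w and at 46.5, 70.0, 157 and 138 CPM in IRR_6w. Gbp9 (ENSMUSG00000029298) stood at 63.7, 38.8, 53.7 and 48.1 CPM in Control_6w and at 45.4, 69.8, 101 and 149 CPM in IRR_6w. As for Gbp6, IRR_6w replicate 1 lay within the controls and replicates 3 and 4 were highest. The log2FC was 1.08 (SE 0.383, edgeR adjusted p = 0.369) for Gbp7 and 0.84 (SE 0.331, edgeR adjusted p = 0.454) for Gbp9. Without the 3 libraries with many genes at 0 these values were 0.26 and 0.18.

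Gbp2 stood at 33.6, 35.3, 34.4 and 41.5 CPM in Control_6w and at 60.1, 72.4, 36.0 and 70.6 CPM in IRR_6w. The low irradiated library was replicate 3, one of the highest for Gbp6, Gbp7 and Gbp9. The log2FC was 0.72 (SE 0.349, edgeR adjusted p = 0.588). Gbp5 ran from 14.9 to 24.4 CPM in Control_6w and from 20.3 to 30.7 CPM in IRR_6w, with overlap and a log2FC of 0.47 (SE 0.274, edgeR adjusted p = 0.685).

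Gbp4 and Gbp8 turned on a single control library at 6 weeks. Gbp4 stood at 30.4, 21.6, 117 and 44.3 CPM in Control_6w and at 25.04, 44.9, 42.8 and 59.1 CPM in IRR_6w. Its log2FC was -0.31 (SE 0.444, edgeR adjusted p = 0.884) and 0.42 without Control_6w replicate 3. Gbp8 had 25, 2, 1950 and 29 counts in Control_6w and 60, 32, 0 and 191 counts in IRR_6w. The 1950 counts, 111 CPM, were in the same library. The log2FC of Gbp8 was -2.99 (SE 1.61, edgeR adjusted p = 0.639) with it and 1.43 without it. That library held 1749 CPM of T and NK cell markers against 5.02 to 20.3 in the other Control_6w libraries, beside the thymus sum given above; their part in the Gbp4 and Gbp8 values was not tested.

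At 1 day Gbp8 had 0, 7 and 4 counts in Control_1d and 4, 7 and 33 counts in IRR_1d. By counting alone 0 counts allow up to 3 at 95% confidence, or 0.188 CPM in Control_1d replicate 1 and 0.191 CPM in IRR_6w replicate 3. Both libraries at 0 are among those with many genes at 0, so these limits may be too low there, which was not tested. Such floors cover counting error only. Outside Control_6w replicate 3 no library exceeded 9.06 CPM of Gbp8.

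**Figure D3:**
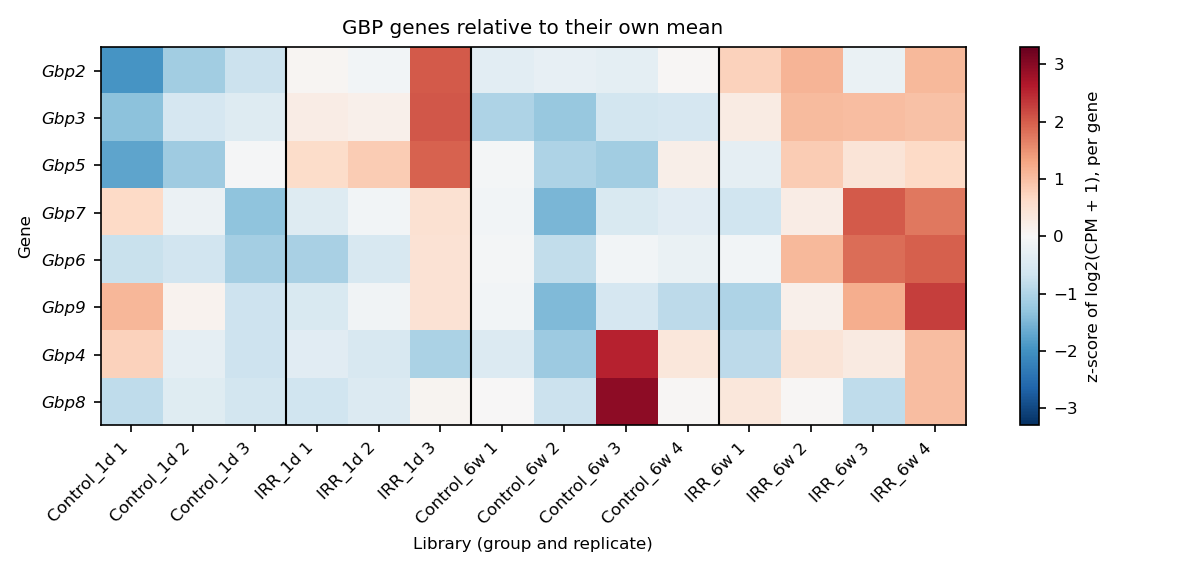
Level of each member in each library as a z-score of log2(CPM + 1) over the 14 libraries, with genes in rows and libraries in columns by group. IRR_1d replicate 3 is highest for Gbp2, Gbp3 and Gbp5, IRR_6w replicates 3 and 4 are highest for Gbp6, Gbp7 and Gbp9, and Control_6w replicate 3 is highest for Gbp4 and Gbp8.

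The members differed by library as well as by group. IRR_1d replicate 3 was the highest of all 14 libraries for 3 of the 8 members (Gbp2, Gbp3 and Gbp5), Control_6w replicate 3 for 2 (Gbp4 and Gbp8), IRR_6w replicate 4 for 2 (Gbp6 and Gbp9) and IRR_6w replicate 3 for 1 (Gbp7). After each group's mean was subtracted from log2(CPM + 1), Pearson's r over the 14 libraries was 0.93 between Gbp7 and Gbp9, 0.87 between Gbp6 and Gbp9 and 0.86 between Gbp6 and Gbp7. It was 0.76 between Gbp2 and Gbp3, 0.72 between Gbp3 and Gbp5 and 0.71 between Gbp4 and Gbp8. Between Gbp2 and Gbp7 it was -0.20 and between Gbp2 and Gbp9 -0.05. Gbp7 had an r of 0.27 with Gbp3 and 0.13 with Gbp5, its neighbours on chromosome 3, below its values with Gbp6 and Gbp9 of chromosome 5. These values are descriptions, since the points share their library, its depth and its tissue make-up.

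Time was compared within the controls and within the irradiated mice. Between Control_6w and Control_1d 0 of 8 members and 0% of all genes were called by edgeR, with 1 member, Gbp8, at an unadjusted p with the fold limits against 3.75% of all genes. The Gbp8 value was 6.48 (SE 2.24, edgeR adjusted p = 0.902) on the log2 scale and rested on Control_6w replicate 3, since it was 2.01 without that library. Gbp2 was higher in every Control_6w mouse than in any Control_1d mouse, at 33.6 to 41.5 against 14.5 to 27.9 CPM, with a log2FC of 0.75 (SE 0.383, edgeR adjusted p = 0.902), and 3.38% of all genes were higher without overlap in this comparison. DESeq2 and limma voom called 0 members here.

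Between IRR_6w and IRR_1d 0 of 8 members were called by edgeR, against 0.0374% of all genes. Gbp6 alone passed at an unadjusted p with the fold limits, against 3.85% of all genes, with a log2FC of 1.99 (SE 0.566, edgeR adjusted p = 0.477). It was 3.05 (edgeR adjusted p = 0.0117) without the 3 libraries with transcripts of other tissues and 1.01 (edgeR adjusted p = 1) without the 3 with many genes at 0. DESeq2 on all libraries called 1 member there, with 148 of all genes called, and limma voom called 0 members. The change in the irradiation effect from 1 day to 6 weeks was called for 0 of 8 members and 0% of all genes by edgeR, and for 0 members by DESeq2 and limma voom. At an unadjusted p with the fold limits 0 members passed, against 2.86% of all genes. The smallest unadjusted p among them was that of Gbp9, whose effect was larger at 6 weeks by 0.98 on the log2 scale (SE 0.503, edgeR adjusted p = 0.990). Without the 3 libraries with many genes at 0 this change was 0.0512. The different order of the members at the 2 time points is therefore a description and was not past the test.

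The other GBP genes of the table were Gbp2b, Gbp10 and Gbp11, all at low levels and none called by edgeR or limma voom. Gbp2b had 0 to 4 counts in Control_6w and 18 to 59 counts in IRR_6w, without overlap, and a log2FC of 3.48 (SE 1.55, edgeR adjusted p = 0.534). At 1 day its 75 counts in Control_1d replicate 1 stood against 0 to 2 counts in the other 5 libraries. Gbp10 had 0 to 35 counts in Control_6w and 174, 196, 43 and 163 counts in IRR_6w, without overlap and with a log2FC of 3.02 (SE 1.28, edgeR adjusted p = 0.502). In IRR_1d replicate 3 Gbp10 reached 231 counts against 0 to 11 in the other libraries of 1 day. For Gbp10, 73.5% of the 100-base stretches occur in other genes, so its counts and those of Gbp6 cannot be fully separated. DESeq2 called Gbp10 in the mean effect (3.54, DESeq2 adjusted p = 0.00617) and, when fitted to the 2 groups of 6 weeks alone, Gbp2b (adjusted p = 0.00379) and Gbp10 (adjusted p = 0.0299). These DESeq2 fits called 204 and 352 of all genes. Gbp11, a polymorphic pseudogene in the annotation, ran from 0 to 149 counts. At 1 day it had 0, 3 and 3 counts in Control_1d and 12, 5 and 40 counts in IRR_1d, without overlap (log2FC 2.85, SE 2.08, edgeR adjusted p = 1), and its groups overlapped at 6 weeks.

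The genes of the pathway that induces GBPs were followed in lists. Of 9 ligands and inducing cytokines only Il15 and Il18 had enough counts for testing, and neither was called. Ifng, the main inducer of GBPs, had 0 counts in all 14 libraries, as had Ifna2 and Ifna4. Ifnb1 had 2, 36 and 20 counts in IRR_6w replicates 2, 3 and 4 and 0 in the other 11 libraries. IRR_6w replicates 3 and 4 are among the libraries with many genes at 0, whose part in these counts was not tested. By counting alone 0 counts allow up to 3 at 95% confidence, from 0.142 CPM in IRR_6w replicate 4 to 0.302 CPM in Control_1d replicate 2. Of the 7 interferon receptors and kinases 0 were called at either time or in the mean effect, and their median log2FC was -0.07 at 1 day and 0.18 at 6 weeks. The calls of all genes were 4 at 1 day, 38 higher and 3 lower at 6 weeks, and 44 higher and 1 lower in the mean effect.

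Among 10 interferon transcription factors 1 was called higher at 6 weeks and in the mean effect, and 0 at 1 day. It was Irf7, the amplifier of type I interferon responses, which stood at 8.75, 14.5, 9.24 and 10.8 CPM in Control_6w and at 56.5, 240, 142 and 185 CPM in IRR_6w. These groups did not overlap, and the log2FC was 3.85 (SE 0.574, edgeR adjusted p = 0.0188). The median of the list was 0.50 at 1 day and 1.06 at 6 weeks. Of 7 inhibitors of interferon signalling 0 were called in these comparisons.

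The immunity-related GTPases are the other GTPase family that interferon-γ directs to parasite vacuoles, and GBPs act with them there. Of 7 members 1 was called at 6 weeks, Irgm1 with a log2FC of 1.82 (SE 0.342, edgeR adjusted p = 0.0468), and 1 in the mean effect, Irgm2 with 1.12 (SE 0.204, edgeR adjusted p = 0.0321). Their median was 0.91 at 1 day and 1.32 at 6 weeks. Of 14 tested other effectors of interferon-γ 1 was called, H2-K1 at 6 weeks (1.30, SE 0.244, edgeR adjusted p = 0.0468), a chain of MHC class I. The median of these 14 was 0.53 at 1 day and 0.59 at 6 weeks. It was 0.24 and 0.84 without the 3 libraries with transcripts of other tissues. Without the 3 with many genes at 0, where 15 were tested, it was 0.46 and 0.26. Of 12 genes that mainly answer type I interferon 2 were called at 6 weeks, Ifit3 with 3.39 (SE 0.6001, edgeR adjusted p = 0.0400) and Rsad2 with 2.25 (SE 0.388, edgeR adjusted p = 0.0335), and 4 in the mean effect, Ifit3, Oasl2, Ifit1 and Rtp4. The median of these 12 was 1.40 at 1 day and 2.37 at 6 weeks, against 0.94 and 0.78 for the 8 GBPs. Without the 3 libraries with transcripts of other tissues the medians were 0.70 and 2.76 for these 12 and 0.21 and 1.21 for the 8 GBPs, so that the GBP median was then higher at 6 weeks than at 1 day. Without the 3 with many genes at 0 they were 1.43 and 1.96 for these 12. For the 8 GBPs they were then 0.88 and 0.34, lower at 6 weeks than at 1 day. The 1-day medians of the transcription factors and the immunity-related GTPases were 0.18 and 0.41 without IRR_1d replicate 3.

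The calls of the pathway genes depended on single libraries as that of Gbp3 did. Leaving out 1 library at a time lost the 6-week call in 4 of 14 fits for Irf7, 7 for Rsad2, 9 for Ifit3, 10 for H2-K1 and 11 for Irgm1. It lost the mean-effect call in 2 fits for Irf7, 3 for Ifit3, 5 for Oasl2, 9 for Ifit1 and 10 each for Irgm2 and Rtp4. The log2FC values stayed above 0 in all of these fits. At 6 weeks they ran from 3.57 to 4.13 for Irf7, 2.04 to 2.47 for Rsad2 and 3.17 to 3.68 for Ifit3. For H2-K1 they ran from 1.165 to 1.43 and for Irgm1 from 1.56 to 2.06. Mean-effect values ran from 2.18 to 3.01 for Irf7, 2.25 to 3.18 for Ifit3 and 1.485 to 2.05 for Oasl2. Those of Ifit1 ran from 1.97 to 2.92, of Irgm2 from 0.93 to 1.23 and of Rtp4 from 1.05 to 1.42. Without the 3 libraries with many genes at 0 none of these calls held, with 6-week edgeR adjusted p-values of 0.187 for Irf7, 0.311 for Rsad2, 0.320 for Ifit3, 0.340 for Irgm1 and 0.359 for H2-K1. The 6-week log2FC was then 3.78 for Irf7, 1.935 for Rsad2, 2.97 for Ifit3, 1.51 for Irgm1 and 1.15 for H2-K1. These are somewhat below the values with all libraries. In the mean effect it was then between 1.05 (Irgm2) and 2.90 (Ifit3). Limma voom made the 6-week calls of Irf7 and Rsad2 and the mean-effect calls of Irf7, Ifit3 and Oasl2, and not the others. DESeq2 on all libraries added 6-week calls of Stat2, Nlrc5, Irgm2, Iigp1, H2-D1, Oasl2, Ifit1 and Rtp4, all from the lists above. It added mean-effect calls of Nlrc5, Irgm1 and Iigp1. Of all genes it called 343 at 6 weeks and 204 in the mean effect.

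Partners of GBPs, downstream of them or needed for their lipid tail and targeting, were not called. Of 9 inflammasome partners, among them Casp4 (the mouse caspase-11 gene) and Zbp1, a sensor of Z-form nucleic acids, 0 were called at 1 day, at 6 weeks or in the mean effect. Casp4 had a log2FC of 1.11 (SE 0.876, edgeR adjusted p = 0.772) at 6 weeks, with groups that did not overlap. Of 5 prenylation enzymes, which add or further process the lipid tail, and 6 genes of ATG8 conjugation, which GBP targeting needs, 0 were called in these comparisons.

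**Figure D4:**
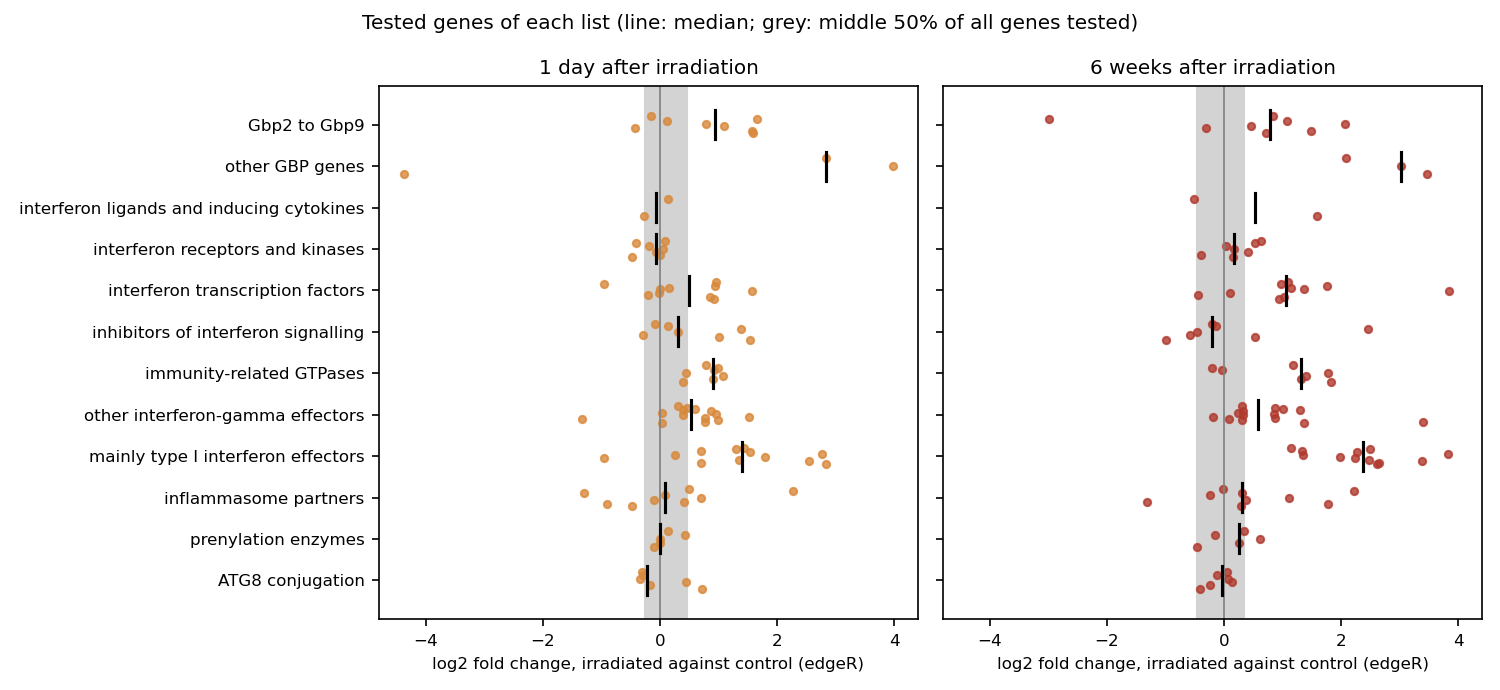
Log2FC of each tested gene in each list at 1 day and at 6 weeks, each dot being 1 gene, with a line at the list's median and a grey band for the middle 50% of all genes tested. The 8 GBPs have medians of 0.94 and 0.78, and the genes that mainly answer type I interferon have medians of 1.40 and 2.37. These were 0.21 and 1.21, and 0.70 and 2.76, without the 3 libraries with transcripts of other tissues. Without the 3 libraries with many genes at 0 they were 0.88 and 0.34, and 1.43 and 1.96.

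Sums of macrophage and monocyte markers, of cells known to make GBPs, did not overlap between the groups of 6 weeks. The 10 macrophage markers summed to 1216 to 1597 CPM in IRR_6w and to 301 to 759 CPM in Control_6w. All 10 were higher, 9 of them at an unadjusted p under 0.05, and 0 were called. Of the 16034 genes tested, 871 were higher and 541 lower at that unadjusted p, without fold limits. The 5 monocyte markers summed to 427 to 801 CPM in IRR_6w and to 80.5 to 144 CPM in Control_6w, and 2 of the 5 were called. The 8 endothelial markers had a median log2FC of 0.20 at 6 weeks, and 0 were called. At 6 weeks 6 of 7 fibroblast markers had a log2FC above 0 (median 1.19, 4 of them without overlap, 0 called) and all 7 cardiomyocyte markers had one below 0 (median -0.62, 0 called). Of all genes, 43.75% had a log2FC above 0 at 6 weeks and 4.07% were higher without overlap. At 1 day the macrophage sums were 740 to 885 CPM in IRR_1d and 648 to 878 CPM in Control_1d, and overlapped. The monocyte sums of 1 day were 159, 132 and 458 CPM in IRR_1d and 111, 95.8 and 119 CPM in Control_1d, and did not overlap. By gene, 3 of the 5 monocyte markers had a log2FC above 0 at 1 day and 2 below 0, and 0 were called. Only 1 of them was higher without overlap, against 6.51% of all genes. All 7 fibroblast markers had a log2FC above 0 at 1 day (median 0.93), as had all 4 smooth muscle markers (median 2.27), and 0 of either were called. IRR_1d replicate 3 held the highest sum of both, with 4907 CPM of fibroblast markers, while the other IRR_1d libraries lay within the range of Control_1d (1931 to 2639 CPM of fibroblast and 194 to 282 CPM of smooth muscle markers). The part of these cells in the GBP values was not tested.

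The genes outside the family whose levels were most like the members' mean z-score were Lgals9 (Pearson's r 0.93), Parp9 (0.92), Trim30d (0.92), H2-T23 (0.92) and Ddx58 (0.91), over 14 libraries and 16023 genes. After the group means were subtracted they were Jaml (0.92), Parp9 (0.91), Ddx58 (0.90), Lgals9 (0.89) and Adnp2 (0.89). None of these 7 genes was called at 1 day, at 6 weeks or in the mean effect. The largest of 16023 correlations is high by selection, and these are descriptions of likeness alone.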

How the data were processed

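Cardiac RNA of 14 mice was sequenced from paired 150-base reads on an Illumina HiSeq. The authors deposited 1 table of whole-number counts per gene, with 54532 genes, 14 libraries and, as another kind of value per the file headers, a gene length in bases. According to the methods and the submitters' processing notes, reads were checked with FastQC 0.11.8, trimmed with Trim Galore 0.6.1, aligned to mm10 with STAR 2.5.0a and counted with HTSeq. The strand setting, how HTSeq treated shared reads and the gene annotation used were not given in the sources used here. Reads of the overlapping or near-identical GBP genes may have been lost or split between them at that step.

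Counts were used as deposited. The test was that of edgeR 4.0.16 under R 4.3.3 (filterByExpr, TMM, 1 fit of the 4 groups, quasi-likelihood test, Benjamini-Hochberg over 16034 genes). A gene was called at an adjusted p under 0.05 and a fold above 2 or below 0.5. SEs were derived from the fold change and the F statistic, and p-values measure the spread between mice. CPM and FPKM were computed from the counts with TMM-scaled totals and, for FPKM, the deposited length. Library totals of 13336746 to 16837265 mean that a gene at 100 counts is known to about 10% by counting alone. With plain library totals the median over all genes was higher by 0.0701 (1 day) and 0.229 (6 weeks) on the log2 scale than with TMM. DESeq2 1.42.0, limma 3.58.1, other scalings, filters and left-out libraries served as alternatives, and the edgeR script was tested on simulated data. Smallest two-sided exact permutation p-values in these groups would be 0.10 (3 against 3) and 0.0286 (4 against 4), and none was used.

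Named genes were all 8 members, the other genes with a Gbp symbol, at most 4 genes per list with the smallest p in the mean effect, and the 5 genes most like the members by each measure. Rsad2, Ifng, Ifna2, Ifna4, Ifnb1 and Gm43302 were named outside this rule after their values were seen. The values of 1 list gene are not reported here. The members, lists and left-out sets of libraries were chosen with earlier results of these data known.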

Additional observations from a re-analysis of the deposited data

Results flagged for a closer look

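Over 22 combinations of a GBP gene and a group of 4 libraries, 3 were past Dixon's 95% critical value. This value judges the distance of a library from the nearest other. Chance gives about 1 in 20 for values with a normal spread. Genes near 0 counts need not have one, and combinations that share a library are not independent, so that rate is a rough guide. Gbp8 in Control_6w replicate 3 stood at 110.5 CPM, against 1.95 CPM in the next library. In the same library Gbp11 stood at 2.49 CPM, against 0.135 CPM in the next. Gbp3 in IRR_6w replicate 1 was the lowest of its group at 49.6 CPM, against 75.2 CPM in the next.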

How the results depend on the processing

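Of the 8 members, edgeR called 1 in the mean irradiation effect, against 3 by DESeq2, 3 at an unadjusted p, 0 by limma voom, 0 without the 3 libraries with many genes at 0, and 0 to 1 when 1 library was left out. The calls of all genes there were 45 by edgeR, 204 by DESeq2, 574 at an unadjusted p and 24 by limma voom. They were 6 without the 3 libraries with many genes at 0. At 6 weeks the 0 calls became 2 with no filter on low counts, 2 with DESeq2 on all libraries or on the 2 groups alone, 3 at an unadjusted p, 2 without the 3 libraries with transcripts of other tissues, and 0 to 1 when 1 library was left out (1 without IRR_1d replicate 3 or IRR_6w replicate 1). The calls of all genes at 6 weeks were 41 by edgeR, 138 with no filter, 343 and 352 with DESeq2, and 871 at an unadjusted p. Leaving out the 3 libraries with transcripts of other tissues gave 180, leaving out IRR_1d replicate 3 gave 56 and leaving out IRR_6w replicate 1 gave 98. Between the irradiated groups the 0 calls became 1 with DESeq2 on all libraries, at an unadjusted p and without the 3 libraries with transcripts of other tissues. Of all genes 148, 617 and 105 were called there, in that order, against 6 by edgeR. At an unadjusted p there were 3 at 1 day and 1 between the controls, with 358 and 601 of all genes. The change in effect stayed at 0 under all 25 alternatives run. Beyond fewer libraries or another test, the cause of these moves was not tested. Directions turned for values near 0 or resting on 1 library. Without the 3 libraries with transcripts of other tissues the log2 fold change was -0.07145 for Gbp7 at 1 day, 0.61 for Gbp4 and 1.45 for Gbp8 at 6 weeks, and 0.15 for Gbp4 and 0.91 for Gbp8 in the mean effect. Without the 3 with many genes at 0 it was 0.12 for Gbp9 and 3.15 for Gbp2b at 1 day, 3.10 for Gbp2b in the mean effect and -0.0941 for the change in effect of Gbp2b. With all libraries the Gbp2b values were -4.38 at 1 day, -0.45 in the mean effect and 7.86 for the change in effect. Limma voom gave 0.23 for Gbp8 and 1.11 for Gbp2b in the mean effect. With 1 library left out, the values ran at 1 day from -0.31 to 0.13 for Gbp9, -5.20 to 3.19 for Gbp2b and -0.13 to 0.48 for Gbp7, at 6 weeks from -0.61 to 0.42 for Gbp4 and -4.00 to 1.43 for Gbp8, and in the mean effect from -0.86 to 3.33 for Gbp2b and -1.29 to 1.52 for Gbp8. The replicate block changed no count of called members, though Gbp8 in the mean effect turned to 0.27. The block lost the 6-week calls of Irgm1, H2-K1, Ifit3 and Rsad2. Their log2 fold changes were then 1.772, 1.31, 3.277 and 2.195, against 1.82, 1.295, 3.391 and 2.246 without the block. The edgeR adjusted p was 0.1313 for Irgm1 and 0.07483 for H2-K1, Ifit3 and Rsad2. The block also lost the mean-effect calls of Irgm2, Ifit3 and Rtp4. These stood at 1.096, 2.727 and 1.252, against 1.116, 2.973 and 1.291 without the block. The 6-week call of Oasl2 was gained. No pairing of mice by replicate number was seen. Deviations of same-numbered libraries correlated at -0.36 to 0.37, and 2 of 7 irradiated libraries matched their own number best. With 7 pairs, this check cannot decide whether libraries were handled by number. Members under 10 CPM, chiefly Gbp8, are limited by depth.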
